A study of Arabidopsis thaliana with 3 samples.

Results

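The mitochondrial inner membrane genes of Arabidopsis thaliana are described here through the peaks of GRF5, a growth-regulating factor that acts as a transcription factor in organ growth. They are the nuclear genes whose annotation in the authors' peak lists carries the gene ontology (GO) term "mitochondrial inner membrane". The rule found 178 genes, out of 21225 nuclear genes with any GO annotation and 27846 nuclear genes with an entry in the lists. A gene enters these lists only through a peak, so the members were chosen by their GO term and by the same peak calls that are described here. For that reason the values are a description, set beside those of the other 21047 GO-annotated genes, and none of them was tested.

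The lists come from DAP-seq, in which purified protein recovers fragments of purified genomic DNA in a tube and the recovered DNA is sequenced. The 2 GRF5 libraries, labelled biological replicates 1 and 2, used His-tagged GRF5 made in Escherichia coli and fragments of 200 to 500 bp. The third library is an input control, and each GRF5 library was compared with that same input, without a pull-down lacking GRF5. All 3 libraries used root DNA of Col-0, the wild type, whose seedlings were moved at 7 days to medium with 0.2 mM nitrate for 3 days. The series design text also speaks of chromatin immunoprecipitation under the names that these lists carry, whereas the library titles and protocols say DAP-seq. Because the DNA was purified, a peak gives recovery of naked DNA, not occupancy in root cells. Whether the replicates had separate protein or DNA preparations is not stated in the labels, and their spread may be only technical.

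The mitochondrial inner membrane holds the respiratory chain, which passes electrons from NADH and succinate to oxygen and pumps protons, and the ATP synthase, which uses the proton gradient. Nearly all other traffic through it needs dedicated proteins: carriers for metabolites, channels for ions, and the TIM and OXA machines that import and insert proteins made in the cytosol or the matrix. Plants add alternative oxidases and NAD(P)H dehydrogenases that move electrons without pumping protons. Most of these proteins are encoded in the nucleus, which is the set examined here.

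The label was checked against the product names. Most members named a respiratory complex, a carrier, an import subunit or an enzyme known from this membrane. The annotation also took in proteins named for other places: TOM20-2 and TOM40 of the outer membrane translocase, PETC of the chloroplast cytochrome complex, and the nucleotide transporter ER-ANT1 of the endoplasmic reticulum. A chloroplast term was carried by 25 of the 178 members as well. The members were kept as the rule gives them. All 178 matched a protein-coding entry of the RefSeq table. A symbol was available for 87, and the other 91 are given by locus identifier.

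A peak was called shared when the lists held peaks that overlapped, over 50% or more of the shorter, and both carried the gene in their annotation. Fold enrichments are those of the authors and set the pileup of fragments at the summit against a local background taken from the input. Coordinates are 1-based on TAIR10 and are those of replicate 1 where a peak is shared. Across all nuclear peaks the median fold enrichment was 1.82 in replicate 1 and 1.84 in replicate 2, with a median summit pileup of 85 and 81 fragments. Read totals were not used here, so depth is known only through these pileups.

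A shared peak in any region was present at 126 of the 178 inner membrane genes (70.8%), and such a peak was present at 68.9% of the other GO-annotated genes. In the promoter, 77 members had a shared peak (43.3%), against 44.8% of the others. A promoter peak in replicate 1, shared or not, was found at 106 members (59.6%, others 64.1%), and in replicate 2 at 105 (59.0%, others 61.1%). In the gene body, meaning coding exons or introns, 84 members had a shared peak (47.2%, others 40.4%). Of the 77 members with a shared promoter peak, 35 also had a shared peak that touched the gene body, in some cases the same peak, and 42 did not. This split was not made for the other genes. A gene body peak alone was found at 49 members (27.5%, others 24.1%). Because both sets entered the lists by having a peak, these shares say nothing about genes without one.

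**Figure D1:**
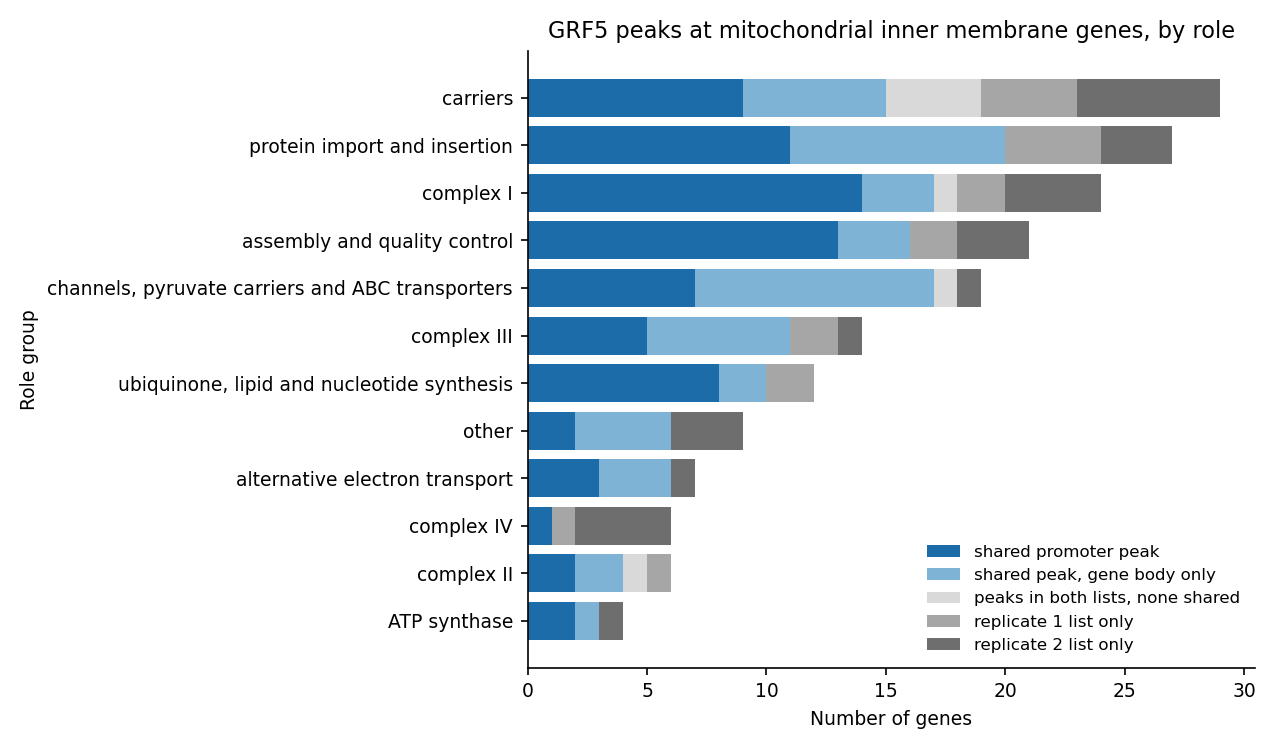
Stacked bars give the number of inner membrane genes (x axis) in each of the 12 role groups (y axis) by the kind of GRF5 peak they carry. Complex I and the assembly and quality control group are mostly shared promoter peaks, 14 of 24 and 13 of 21 genes, while 14 of the 29 carrier genes have no shared peak. Among the other GO-annotated genes, 44.8% had a shared promoter peak and 68.9% a shared peak in any region.

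The strength of the peaks was low, as in the lists at large. The strongest shared peak of a member had a median mean fold enrichment of 1.88 (quartiles 1.76 and 2.06, n = 126 genes), and the other genes had a median of 1.92 (1.77 and 2.11, n = 14504). A mean of at least 2-fold was reached by 45 of the 178 members (25.3%), with 26.4% among the others. A mean of at least 3-fold was reached by 1 member (0.562%), with 1.69% among the others. Promoter peaks of members had a median of 1.82 at 77 genes and 1.90 at the 9438 other genes that had one. The highest promoter value of any member was 2.33, and 9.24% of the other genes with a shared promoter peak were above it.

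**Figure D2:**
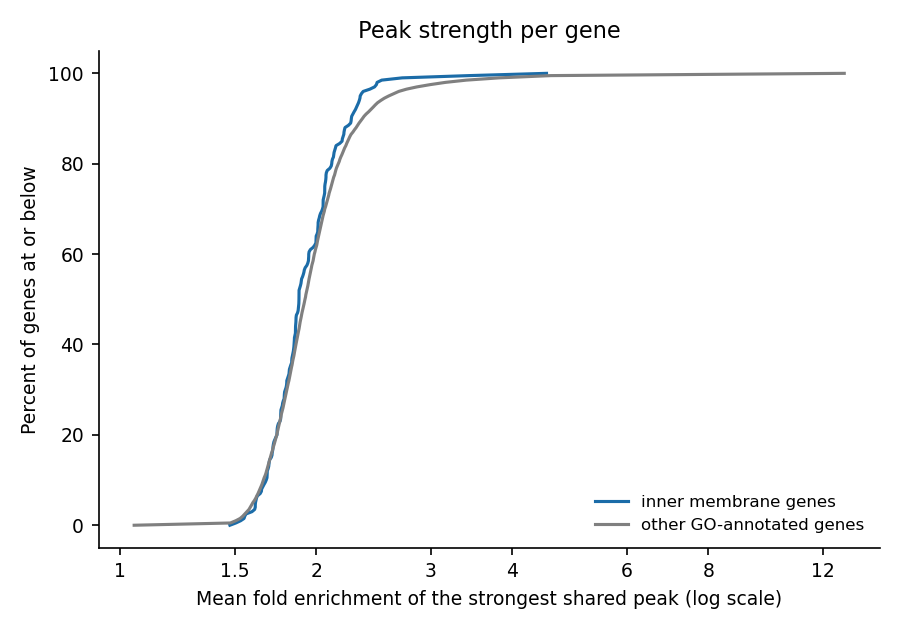
Lines give the percent of genes (y axis) whose strongest shared peak is at or below a mean fold enrichment (x axis, log scale), for 126 inner membrane genes and 14504 other GO-annotated genes. The lines run close together up to about the median, 1.88 and 1.92, and the inner membrane genes end at 4.51 where the others reach 12.9.

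The highest value of any member was well above the next. AT1G14560, which encodes a mitochondrial substrate carrier family protein, carried a peak over coding exon and intron sequence on chromosome 1 from 4981689 to 4982362. Its fold enrichment was 4.69 in replicate 1 and 4.34 in replicate 2 (mean 4.51 ± 0.252, SD, n = 2), with 240 and 208 fragments at the summit and summits 9 bp apart. This is above the strongest shared peak of 99.4% of the other genes with one. The same peak was annotated to the promoter of the neighbour AT1G14570, so the lists do not assign it to a single gene.

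Behind it came OXA1 (AT5G62050), the insertase that places matrix-made proteins into the inner membrane, with 2.97- and 2.60-fold enrichment over coding exons and introns on chromosome 5 from 24926185 to 24927346. SD3 (AT4G00026), an import inner membrane translocase subunit, had 2.37 and 2.59. CLS (AT4G04870), the cardiolipin synthase gene, whose product makes the lipid typical of this membrane, had 2.35 and 2.37 with summits 2 bp apart. Each of these 3 peaks lay in the gene body. The OXA1 peak was also annotated to the promoters of AT5G62060 and AT5G62065, and the SD3 peak to those of AT4G00030 and AT4G00040. No other gene was annotated to the CLS peak in both lists. Of the 12 members with the highest values, 10 had their strongest shared peak in the gene body. The 2 exceptions were AT4G21105 and AT5G47890, both respiratory chain subunits. Over all combinations of a gene and a shared peak, 54.4% touched the gene body in members and 53.0% in the other GO-annotated genes. The share among the highest peaks of those other genes was not taken.

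**Figure D3:**
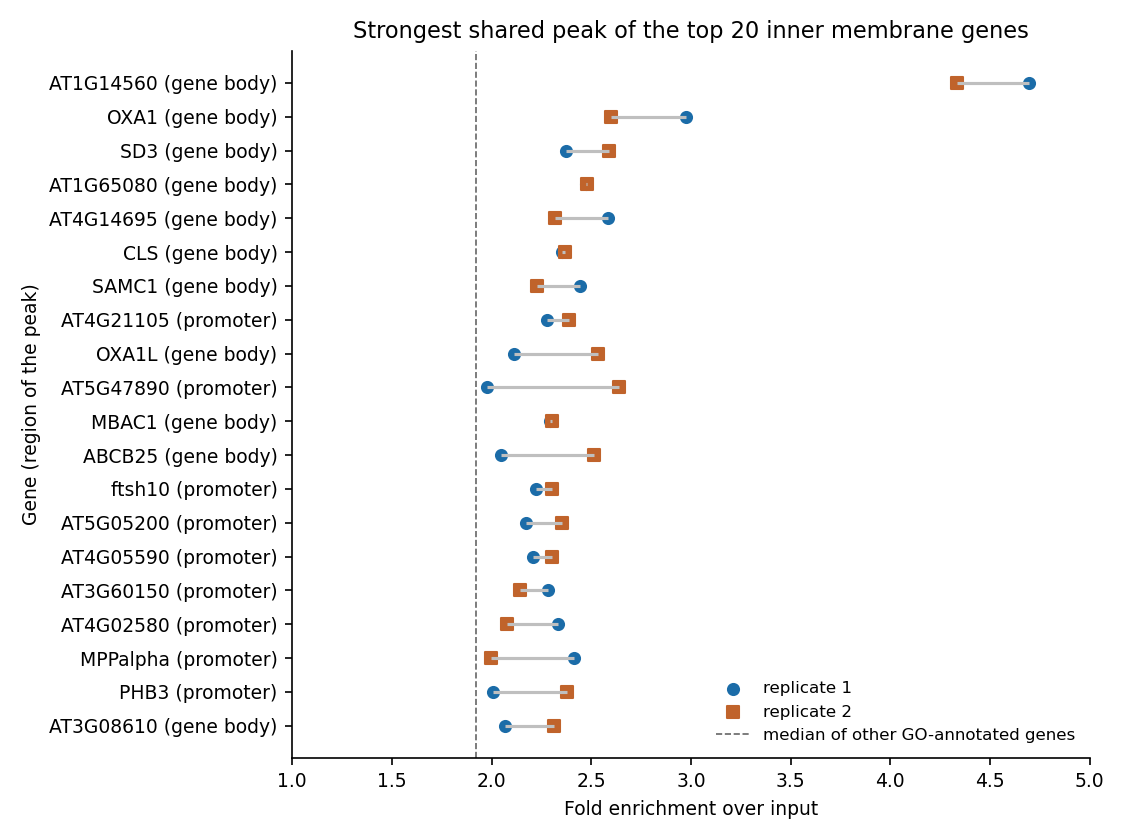
Points give the fold enrichment over input (x axis) of the strongest shared peak in replicate 1 (circles) and replicate 2 (squares) for the 20 inner membrane genes with the highest means, with the region of the peak in the gene label. AT1G14560 lies above 4 in both replicates, and no other gene reaches 3 in either. The dashed line is the median of the other GO-annotated genes, 1.92.

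Respiratory complexes held 54 members by GO term or product name. Of these, 24 had a shared promoter peak (44.4%) and 36 a shared peak anywhere (66.7%), with a median strongest value of 1.87. Their shares were thus near those of the other GO-annotated genes, 44.8% and 68.9%.

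Complex I, the NADH dehydrogenase that begins the chain, had 24 members, 14 of them with a shared promoter peak (58.3%, other GO-annotated genes 44.8%). AT5G47890, the B8 subunit, had 1.98-fold enrichment at its promoter in replicate 1 and 2.64 in replicate 2. AT4G02580, the 24 kDa subunit, had 2.34 and 2.08, but the summits lay 862 bp apart in a wide peak that also covered coding sequence of CUL1. CI51 (AT5G08530), the 51 kDa subunit that carries the NADH site, had 2.04 and 2.22. FRO1 (AT5G67590), a further subunit of the complex, had 1.92 and 1.97, with summits 461 bp apart. The GO terms place the prohibitins PHB3, PHB4 and PHB6 and the gene OEP16-3 in this complex too, and each of these 4 was among the 14. PHB3 had 2.01 and 2.38. Without a shared peak were 7 members, AT3G18410 and AT1G49140 among them, which both encode the beta subcomplex subunit 10-B. The promoter peak of AT1G49140 in replicate 1, with 1.85, had a partner in replicate 2 that was not annotated to the gene.

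Complex II, succinate dehydrogenase, had 6 members. At the promoter, SDH1-2 (AT2G18450) had 1.91- and 1.61-fold enrichment, and SDH1-1 (AT5G66760) had 1.51 and 1.44. Both encode the flavoprotein subunit. SDH1-1 also had a gene body peak with 1.72 and 2.06. The iron-sulfur subunit genes SDH2-1 and SDH2-2 carried shared gene body peaks only, with means of 1.66 and 1.74. For SDH2-3 (AT5G65165), a related iron-sulfur subunit gene, replicate 1 alone had a promoter peak with 2.23-fold enrichment, and replicate 2 had a different peak over its coding exons and introns with 1.83. Replicate 1 also had a second promoter peak with 1.66 and a coding exon peak with 1.68. That coding exon peak had a partner in replicate 2, which was not annotated to the gene. None of the 6 reached a mean of 2-fold, a level reached by 26.4% of the other GO-annotated genes.

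Complex III, the cytochrome bc1 complex that passes electrons from ubiquinol to cytochrome c, had 14 members. Of these, 5 had a shared promoter peak (35.7%, other GO-annotated genes 44.8%) and 6 had shared peaks in the gene body only (others 24.1%). MPPalpha (AT3G16480), the subunit of the peptidase that removes import presequences and sits in complex III in plants, had 2.41- and 1.99-fold enrichment at its promoter. AT5G40810, a cytochrome c1 gene, had a promoter peak with 1.98 and 2.01 and a gene body peak with 2.19 and 1.89. AT3G10860, for subunit 8, had 1.87 and 1.92, and AT5G25450, for the 14 kDa subunit, had 2.02 and 1.68, both at the promoter. The Rieske iron-sulfur genes AT5G13430 and AT5G13440 are neighbours. The former had a shared intron peak with a mean of 2.05 ± 0.218 (SD, n = 2), while AT5G13440 had an intron peak in replicate 2 alone, with 1.87. That replicate 2 peak was also annotated to the promoter of AT5G13430. AT2G40765, in this group, had the weakest value among the strongest shared peaks of the 126 members, with 1.52 and 1.42 over coding exon and intron sequence. Its promoter had a peak of 1.65 in replicate 2 alone.

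Complex IV, cytochrome c oxidase, had 6 members, 1 of them with a shared peak (16.7%, other GO-annotated genes 68.9%). That gene, AT4G21105, had 3 shared peaks, and its promoter peak on chromosome 4 from 11263571 to 11264093, with 2.28- and 2.39-fold enrichment, was the highest promoter peak of all 178 members. This peak also lay over coding exons and introns of the neighbour DDB1B. The 3 genes of subunit Vc had entries in replicate 2 alone (other GO-annotated genes 11%). They were AT2G47380 with 1.73, AT5G40382 with 1.84 and AT5G61310 with 1.75. AT5G61310 had a second, stronger peak in replicate 2, whose partner in replicate 1 was not annotated to the gene. AT4G37830, for subunit 6a, had 1.48 in replicate 2 alone, and AT3G62400 had 1.72 in replicate 1 alone.

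The ATP synthase had 4 members. ATPQ (AT3G52300), the D chain, had 1.68- and 1.87-fold enrichment at the promoter, and AT1G51650, the epsilon chain, had 1.55 and 1.68. AT5G47030, the delta/epsilon subunit, had an intron peak with 1.93 and 1.78. MGP1 had 1.56 in replicate 2 alone.

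Alternative electron transport had 7 members, 6 of them with a shared peak (85.7%, other GO-annotated genes 68.9%) and none at a mean of 2-fold (others 26.4%). AOX1A (AT3G22370), the alternative oxidase best known for its induction when the cytochrome pathway is blocked, had a gene body peak with 1.99- and 2.01-fold enrichment on chromosome 3 from 7907434 to 7907796. Its promoter peak, from 7906134 to 7906482, had 1.58 and 1.92. AOX2 (AT5G64210) had a promoter peak with 1.85 and 2.15 that also covered coding sequence of AT5G64220. The internal NADH dehydrogenase gene NDA2 had shared promoter peaks with means of 1.74 and 1.65. A coding exon peak of NDA2 in replicate 1 was higher, with 2.37, and its partner in replicate 2 was not annotated to the gene. NDB1, NDB3 and NDB4, of the external dehydrogenases, each had a single shared peak, annotated in both lists to the gene body, with means of 1.73, 1.78 and 1.86. In replicate 2 the NDB4 peak was annotated to its promoter as well. The replicates lay close together in all 3, with 1.76 and 1.70 at NDB1, 1.77 and 1.80 at NDB3 and 1.84 and 1.88 at NDB4.

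Of 22 well-known genes of alternative respiration, adenine nucleotide exchange, uncoupling and protein import that were listed by name, 14 were members. For the other 8 no entry was found among the rows used, and they were not analysed here: AOX1B, AOX1C, AOX1D, NDA1, NDB2, UCP2, AAC2 and TIM23-2. PUMP1 (AT3G54110), the uncoupling protein UCP1, had a promoter peak in replicate 1 with 1.42 and a separate coding exon peak in replicate 2 with 1.68, so no peak was shared.

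Carriers of the mitochondrial substrate carrier family formed the largest group, with 29 members. A shared peak was present at 15 of them (51.7%, other GO-annotated genes 68.9%) and a shared promoter peak at 9 (31.0%, others 44.8%). The gene body peak of AT1G14560, described above, was the highest. SAMC1 (AT4G39460), an S-adenosylmethionine carrier, had a gene body peak with 2.44- and 2.23-fold enrichment, and MBAC1 (AT2G33820), a basic amino acid carrier, had 2.29 and 2.30. Among peaks that touched the promoter the highest were those of AT5G48970 with 2.04 and 2.06, ER-ANT1 with 1.83 and 2.19, SHS1 with 2.06 and 1.96 and AAC3 with 1.68 and 1.96. The AT5G48970 peak also covered its coding exons and introns and the promoter of AT5G48980, and its summits lay 599 bp apart. AAC3 (AT4G28390), an ADP/ATP carrier that exchanges ATP for ADP, had a further coding exon peak with 2.11 in each replicate. AAC1, another ADP/ATP carrier, had a promoter peak in replicate 2 alone, with 1.81. The phosphate carrier PHT3;1 likewise had 1.57 in replicate 2 alone, and BOU, a carnitine carrier-like protein, had 1.89 in replicate 1 alone. APC1 (AT5G61810), with 1.49 and 1.62, was among the 3 members with the lowest strongest shared peak.

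Channels, pyruvate carriers and ABC transporters had a shared peak at 17 of 19 members (89.5%, other GO-annotated genes 68.9%) and a shared promoter peak at 7 (36.8%, others 44.8%). AT4G14695, of the pyruvate carrier family, had a gene body peak with 2.59- and 2.32-fold enrichment that reached the promoter of the replication gene ORC1A. AT4G05590, also pyruvate carrier-like, had promoter peaks with 2.21 and 2.30 and with 2.02 and 1.96. ABCB25 (AT5G58270), the ABC transporter whose export supports cytosolic iron-sulfur cluster assembly, had 2.05 and 2.51 in the gene body. Its relatives ABCB24 and ABCB23 are neighbours and shared a peak with 1.76 and 1.61, in the promoter of the former and the gene body of the latter. All 4 LETM1-like genes, which encode proteins of ion exchange, had a shared peak. AT3G11560 carried 4 of them, all in the gene body, with means from 1.66 to 1.91, and LETM2 had a promoter peak with 1.89 and 2.00. Of the 4 calcium uniporter genes, 3 had a shared peak, from a promoter peak of AT1G09575 with 1.47 and 1.58 to a coding exon peak of AT5G42610 with 2.09 and 2.18. The third of them, AT4G36820, had a promoter peak with 1.70 and 1.87. AT4G32060, an EF-hand protein, had 1.81 and 2.22 at the promoter.

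Protein import and insertion had 27 members, 20 with a shared peak (74.1%, other GO-annotated genes 68.9%) and 11 with a shared promoter peak (40.7%, others 44.8%). Their median strongest value was 2.02, and 12 reached a mean of 2-fold. The OXA/YidC insertases were picked out after their values were seen. All 5 members had a shared peak with a mean of at least 2-fold, from 2.03 to 2.78, where 26.4% of other GO-annotated genes reached this level. OXA1 was the highest. AT1G65080 had 2.48 in each replicate and 4 shared peaks, OXA1L (AT2G46470) had 2.11 and 2.54 and also 4, and AT3G44370 had 1.95 and 2.10. AT2G46455 lies beside OXA1L, and its strongest peak, with 2.14 and 2.15, was annotated to the promoter of OXA1L too. The strongest peaks of these 5 genes lay over coding exons and introns.

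Among the subunits of the TIM23 channel, TIM17-3 and TIM23-1 had shared promoter peaks, with 2.03 and 1.59 and with 1.78 and 1.81. TIM17-1, TIM17-2 and TIM23-3 had promoter peaks in replicate 1 alone, with 1.65, 2.03 and 1.86. The TIM44 subunits, which tether the import motor to the channel, both had shared peaks at a mean of 2-fold or more (others 26.4%). TIM44-1 shared its promoter peak, with 1.98 and 2.14, with the prohibitin gene PHB6. TIM44-2 had a mean of 2.02 ± 0.259 (SD, n = 2) in the gene body. TIM13, of the small TIM chaperones of the intermembrane space, had a promoter peak with 1.95 and 1.75, and AT5G03030, a DnaJ-domain protein, had 2.11 and 1.91. TIM50, the receptor of the channel, had a shared gene body peak with 1.66 and 2.06 and a promoter peak of 2.16 in replicate 2 alone.

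Assembly and quality control had 21 members, 13 with a shared promoter peak (61.9%, other GO-annotated genes 44.8%). The protease gene ftsh10 (AT1G07510), whose product degrades inner membrane proteins from the matrix side, had 2.23- and 2.30-fold enrichment at its promoter, on chromosome 1 between 2304320 and 2304751, with summits 4 bp apart. No other gene was annotated to it. ftsh4, of the protease that faces the intermembrane space, had a promoter peak with 1.96 and 1.88 that lay over the heat stress factor gene HSFA2. AT3G60150, a complex I assembly factor, had 2.28 and 2.14, and AT5G27760, of the hypoxia-responsive family, had 2.02 and 2.21, both at the promoter. COX10, an assembly enzyme of cytochrome c oxidase that makes haem O, and its neighbour AT2G44525, a complex I assembly factor, were joined by a peak with 1.59 and 1.63. AT4G26965, another complex I assembly factor, had a promoter peak of 2.22 in replicate 2 alone and no shared peak. AT4G39690, a subunit of the MICOS complex of cristae junctions, had a gene body peak of 2.16 in replicate 2 alone, beside shared peaks with means of 1.65 and 1.64. All 4 prohibitin genes among the members, PHB5 included, had a shared promoter peak, with strongest means from 1.68 to 2.19.

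Of the 12 genes of ubiquinone, lipid and nucleotide synthesis, 8 carried a shared promoter peak (66.7%, others 44.8%). The role groups are small and were chosen through the same peak calls, so nothing is read from how their shares differ from those of the other genes. PPT1 (AT4G23660), which attaches the side chain of ubiquinone, the mobile electron carrier of the membrane, had a peak over promoter and intron with 2.16- and 2.05-fold enrichment. PYRD, the dihydroorotate dehydrogenase of pyrimidine synthesis, had 2.18 and 1.82, AT5G57300, a COQ5-type methyltransferase, had 2.16 and 1.80, and ABC1, grouped here with ubiquinone synthesis, had 3 promoter peaks, the highest with 1.97 and 1.74. Of the 7 ubiquinone synthesis genes, 6 had a shared peak (others 68.9%). NDPK3, a nucleoside diphosphate kinase, had the highest peak of any member that was called in 1 list only, with 2.27 at its promoter in replicate 2, beside shared peaks with means of 1.71 and 1.68. Among the 9 members outside all groups, AT5G05200, a protein kinase superfamily gene, had 2.17 and 2.35 and ATH9 had 1.87 and 1.74, both at the promoter.

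The 126 members with a shared peak held 182 combinations of a gene and a shared peak, on 177 separate peaks, since 5 peaks served 2 members each. A single shared peak was found at 80 members, 2 at 39, 3 at 4 and 4 at 3, the last being AT1G65080, OXA1L and AT3G11560. At least 2 shared peaks were found at 46 members (25.8%), against 21.3% of the other genes. Of the 182 combinations, 45.6% were in the promoter only (others 46.9%). Coding exon and intron together, with no promoter, made up 42.3% (others 34.3%), and coding exon alone 3.30% (others 8.75%). Exon and intron structure differs from gene to gene and was not compared here, so its part in these shares was not tested.

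**Figure D4:**
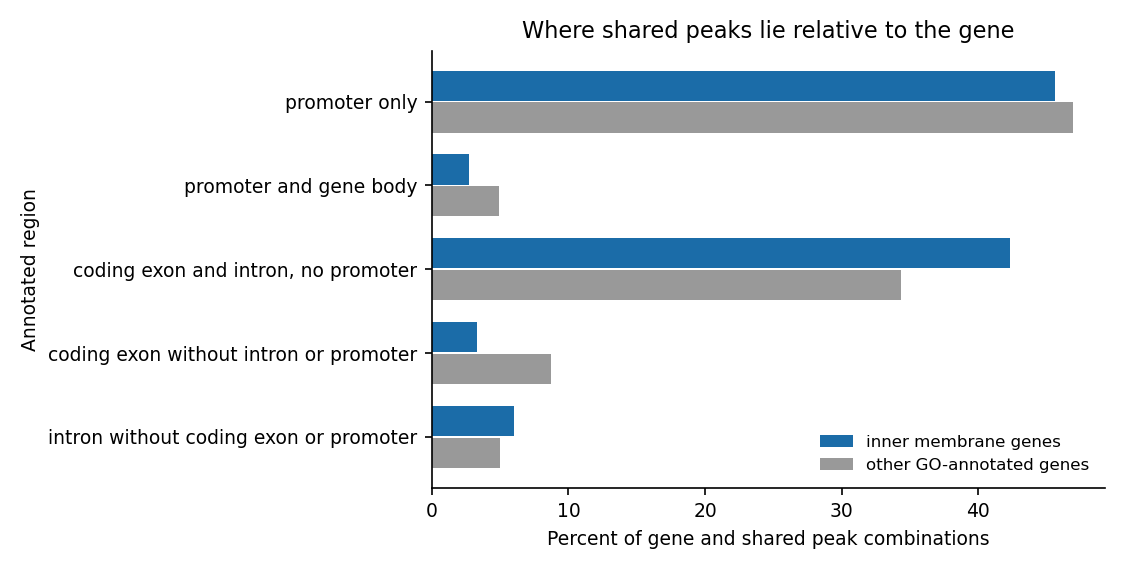
Bars give the percent of combinations of a gene and a shared peak (x axis) in each annotated region (y axis), for 182 combinations of inner membrane genes and 20266 of other GO-annotated genes. Promoter-only peaks are similar, 45.6% and 46.9%, and peaks over coding exon and intron are more frequent among the inner membrane genes, 42.3% and 34.3%.

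Many promoter peaks of members were not theirs alone. Of 88 combinations of a member and a shared promoter peak, 77 (87.5%) were annotated in both lists to another gene as well, against 70.6% for the other GO-annotated genes. In 62 (70.5%) the peak lay over the body of that other gene, against 47.1%. In 37 (42.0%) it lay in a promoter of another gene too, against 43.8%. Examples given above are AT4G21105 with DDB1B, AT4G02580 with CUL1 and ftsh4 with HSFA2. Among those annotated to no other gene were the promoter peaks of ftsh10, PHB3 and AOX1A and the strongest ones of PPT1 and AT4G05590.

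The replicates gave similar levels for most shared peaks of members, and their order was only loosely kept. Over the 177 shared peaks, the median was 1.84 in each replicate, and 78 were higher in replicate 1. The log2 ratio of replicate 2 over replicate 1 had an SD of 0.18 (others 0.19). Spearman's rho between the replicates was 0.499 (others 0.560) and Pearson's r of log2 fold enrichment 0.637 (others 0.727). Without the AT1G14560 peak the members had 0.490 and 0.544, so their Pearson value rests in part on that peak. These are correlations across peaks that share both libraries and the input, given as a description. Summits lay within 100 bp of each other in 115 of the 177 peaks (65.0%, others 64.0%).

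**Figure D5:**
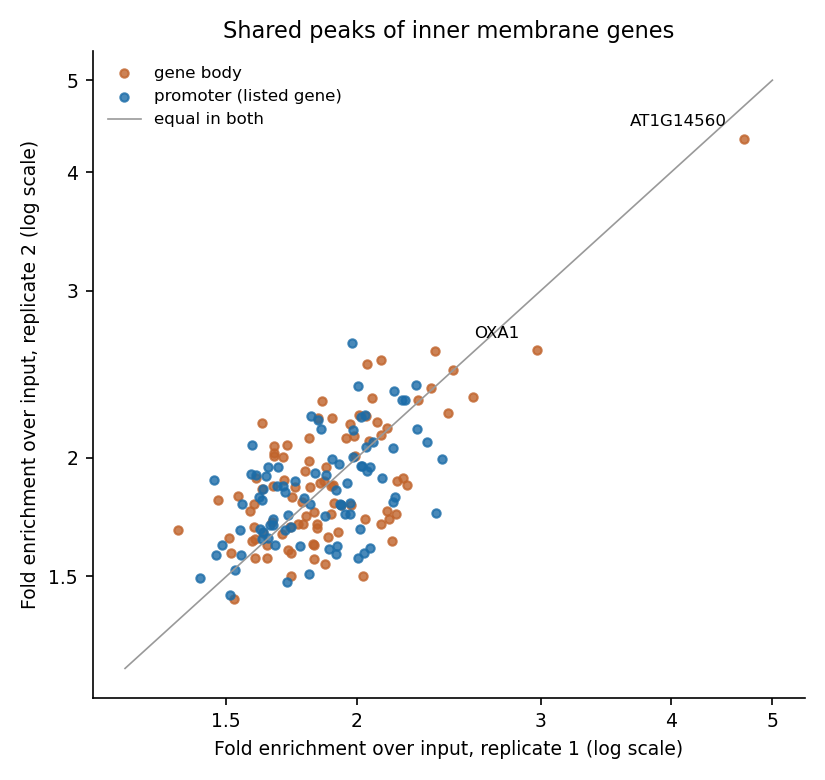
Each point is 1 of the 177 shared peaks, with its fold enrichment over input in replicate 1 (x axis, log scale) and replicate 2 (y axis, log scale), coloured by whether it lies in the promoter of the listed member or in the gene body. The points spread around medians of 1.84 in both replicates, and AT1G14560, at 4.69 and 4.34, is far from the rest.

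No shared peak was found at 52 members. An entry in replicate 1 alone was found at 18 (10.1%, others 13.6%) and in replicate 2 alone at 27 (15.2%, others 11%). At the remaining 7 (3.93%, others 6.49%) both lists had peaks, but none shared for that gene. The strongest peak of these 52 genes had a fold enrichment from 1.39, at SDH6 in replicate 1, to 2.23, at SDH2-3, with a median of 1.74, and 8 of them reached 2-fold. These are values from a single list, unlike the means of both replicates used for shared peaks. They were not taken for the other genes. At 5 of the 52 a peak did have a partner in the other list, which was not annotated to the member.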

How the data were processed

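The submitters' processing notes name Trimmomatic 0.39, Bowtie2 2.4.6, MACS2 2.2.7.1 and the TAIR10 build. Per the file headers, the authors deposited for every peak its summit pileup (a coverage signal), the fold enrichment (a ratio to the input-based background), and −log10 p and −log10 q. No source used here gives the caller settings or the promoter length. Entries were collapsed to 28349 and 27054 nuclear peaks, paired at most once, by longest overlap. Matching was tested on simulated, well-spaced peaks without competing partners, so the choice by longest overlap was not exercised there. Region, gene and GO terms are the authors'. Python 3.11.15, numpy 2.4.6, pandas 2.3.3, scipy 1.17.1 and matplotlib 3.10.9 were used. Symbols are from RefSeq (TAIR10.1). No test was run. Role groups follow GO terms for complexes and the TIM23 channel, otherwise product names; channels and other transporters form an added group and the synthesis group was widened, which departs from the plan. Planned promoter motifs were not examined, as no sequence was used here. Named genes are the 22 listed, the 12 highest, up to 4 per role group by promoter peak, the 3 lowest, the 5 highest unshared and the 3 with most peaks; others (family relatives, neighbours) were named after their values were seen. Members and lists were chosen with earlier results of these data known.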

Additional observations from a re-analysis of the deposited data

Results flagged for a closer look

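Peaks on the mitochondrial chromosome lay outside all comparisons above, which cover nuclear genes: replicate 1 had 25 of them and replicate 2 had 29. They were flagged as signal over input in data not otherwise used. Their median fold enrichment was 1.48 and 1.49, with median summit pileups of 782 and 703 fragments, and their entries carry no GO annotation. Nuclear peaks had higher medians, 1.82 and 1.84. The chloroplast chromosome also had peaks, 53 and 50 of them, with median fold enrichments of 1.59 and 1.62. Their median pileups were 14604 and 13993.5 fragments.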

How the results depend on the processing

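The number of members with a shared promoter peak (77) and with a shared peak in any region (126) stayed within 1.5 times under a 1 bp overlap, summits within 100 bp, or leaving out the genes with a chloroplast term. Counting a peak in a single list gave 105 to 106 and 151 to 160 members. When only peaks with −log10 q of 5 or more were used, the counts were 30 and 60, and with at least 2-fold enrichment 13 and 27; fewer peaks enter by construction, and the other GO-annotated genes fell too, to 21.3% and 35.6%, and to 10.7% and 18.2%. The median strongest value (1.88) ranged from 1.87 to 1.88 without a replicate, and was 1.91 with close summits, 2.06 with the −log10 q limit and 2.26 with the fold limit. The share of gene and peak combinations in a promoter (48.4%) ranged from 48.7% to 50.2% without a replicate, and was 43.3% with the fold limit and 51.0% without chloroplast-annotated genes. The other genes had 51.8%, and 56.1% and 52.2% under these limits. The gap was thus wider with the fold limit, where only 27 members had a shared peak, and narrower without chloroplast-annotated genes. No paired analysis was possible because no groups of replicates were compared. A single input, 2 libraries and unknown read totals limit all values.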

Other observations

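The neighbours annotated to some shared peaks of inner membrane genes are given here as examples, without a count of their kinds. The gene body peak of ABCB24, with 2.04- and 2.21-fold enrichment, was annotated to the promoter of PHR1, a regulator of the phosphate starvation response. The promoter peak of OEP16-3, with 1.71 and 1.68, lay over coding sequence of SPL9 and in the promoter of MIR156j, a microRNA gene of the family that targets SPL genes. Promoter and gene body peaks of ftsh4 were annotated to HSFA2 as coding sequence and as promoter. The promoter peak of FRO1, with 1.92 and 1.97, lay over coding sequence of TRB2, a telomere repeat-binding protein gene. These 4 members were picked by the names of their neighbours after the values were seen.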
